A study of Arabidopsis thaliana with 12 samples.

Results

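D-type cyclins and the inhibitors of their kinases were followed here through 10 genes: the cyclins CYCD1;1, CYCD2;1, CYCD3;1, CYCD3;2, CYCD3;3 and CYCD4;1, and the inhibitors KRP1, KRP2, SIM and SMR1. Their rows were taken by gene name, but the genes were chosen with earlier results of these data known. They make up 10 of the 37242 genes in each deposited table. All 10 were among the 19416 genes that passed the filter on low counts. Poly(A) RNA of young leaves of Arabidopsis thaliana was sequenced in 12 libraries, and each library was a pool of 15 plants. The plants were the mutant npf8.4-1, represented by this 1 allele, and its reference accession Col-0. NPF8.4 belongs to the NPF family of nitrate and peptide transporters. The groups, of 3 libraries each, were npf8.4-1 at day 2, npf8.4-1 at day 0, Col-0 at day 2 and Col-0 at day 0. Day 0 plants had spent 15 days in hydroponic culture on 5 mM KNO3. Day 2 plants had the same 15 days on KNO3 and then 2 days on medium without nitrogen. No day 2 group stayed on KNO3 in the samples used here, so depletion and the 2 further days of growth cannot be told apart.

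D-type cyclins bind the kinase CDKA;1, and the complex phosphorylates the retinoblastoma protein RBR1, which frees E2F transcription factors to switch on the genes of DNA replication. KRP proteins (also called ICK) and proteins of the SIAMESE family bind such complexes and block them. In a young leaf this balance takes part in the passage from dividing cells to cells that expand and copy their DNA without dividing, a cycle called endoreduplication.

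The 250 bases before the annotated start of the member genes were read from the RefSeq genome TAIR10.1, and 3 of these windows are printed as examples that hold a short sequence that plant cell cycle or abscisic acid studies have tied to promoters. Capitals mark that match, each window is written 5′ to 3′ on the strand of its gene, and no other annotated gene lies in it. The window of CYCD1;1 (chr1:26439306-26439555, plus strand) has the site II element, searched as TGGGCC on both strands. The windows of KRP1 (chr2:9978091-9978340, minus strand) and KRP2 (chr3:18800056-18800305, plus strand) have the abscisic acid response element, searched as ACGTGTC on both strands. In KRP1 it is matched on both strands and overlaps a G-box, CACGTG.
CYCD1;1: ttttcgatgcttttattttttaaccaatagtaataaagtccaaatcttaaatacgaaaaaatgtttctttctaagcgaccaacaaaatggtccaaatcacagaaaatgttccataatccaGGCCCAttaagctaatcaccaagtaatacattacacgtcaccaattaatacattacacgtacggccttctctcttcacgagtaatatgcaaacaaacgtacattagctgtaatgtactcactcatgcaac
KRP1: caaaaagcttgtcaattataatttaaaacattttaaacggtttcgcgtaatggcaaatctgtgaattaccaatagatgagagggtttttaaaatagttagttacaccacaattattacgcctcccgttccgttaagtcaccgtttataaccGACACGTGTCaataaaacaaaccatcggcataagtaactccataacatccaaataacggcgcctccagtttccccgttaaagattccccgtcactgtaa
KRP2: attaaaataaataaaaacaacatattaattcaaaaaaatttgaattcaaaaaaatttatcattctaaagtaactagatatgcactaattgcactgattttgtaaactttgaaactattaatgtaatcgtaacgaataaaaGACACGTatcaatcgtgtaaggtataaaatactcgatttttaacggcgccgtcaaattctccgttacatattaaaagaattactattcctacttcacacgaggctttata
Site II lay in 1 of 10 members, the abscisic acid element in 2 of 10 and the G-box in 1 of 10. Among the windows of 19348 tested genes, site II was present in 17.1%, the abscisic acid element in 4.19% and the G-box in 7.42%. The core of the mitosis-specific activator element, AACGG, lay in 3 of 10 members (CYCD3;1, KRP1 and KRP2), in 7 of 11 listed mitotic genes and in 22.1% of all windows. The window of CYCD3;1 lies inside the neighbouring gene AT4G34150 and is not shown. W-boxes (TTGACC or TTGACT, both strands) lay in 3 of 10 members (CYCD2;1, CYCD3;1 and CYCD4;1) and in 27.8% of all windows. The telobox AAACCCTA lay in 0 of 10 members and in 3.66% of all windows. TGACCCTT, a part of the nitrate element, lay in 0 of 10 members and in 0.388% of all windows. The whole nitrate element was not searched. The motifs were picked with the windows in view, so a match is a description of these letters only.

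Depth was even across the experiment, at 28761674 to 34282716 exon reads per library. NPF8.4 itself checked the genotype labels: it averaged 0.869 ± 0.388 CPM in npf8.4-1 and 15.1 ± 2.86 CPM in Col-0 at day 2 (SD, n = 3 each), where CPM is reads per 1000000 of the scaled library total. At day 0 it averaged 0.493 ± 0.262 CPM in npf8.4-1 and 6.71 ± 1.38 CPM in Col-0. The first principal component of log2 CPM held 75.6% of the variance and separated the days, and the third day 2 library of each genotype lay nearest to day 0, at 51.4 in npf8.4-1 and 49.7 in Col-0 against 66.4 to 82.9 for the other day 2 libraries. The leaf label fitted the markers. The summed TPM (a level corrected for transcript length and scaled to the same total in each library) of 4 mesophyll genes ran from 37000 to 51380 over all groups. Of 5 shoot meristem and flower genes, STM and WUS had 0 reads in every library, CLV3 at most 1 and KNAT1 at most 5. The fifth, AG, had 28 to 72 reads at day 2 and 10 to 28 reads at day 0, and it rose by 1.27 ± 0.36 on the log2 scale in npf8.4-1 and by 0.95 ± 0.36 in Col-0 (SE, edgeR, adjusted p = 0.00751 and 0.0377).

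All 6 D-type cyclins were detected in every library, and CYCD3;2 had the highest mean TPM of the 10 genes in every group. It averaged 45.2 ± 5.56 TPM in npf8.4-1 and 41.0 ± 4.59 TPM in Col-0 at day 2, and 58.0 ± 9.01 TPM in npf8.4-1 and 53.4 ± 4.63 TPM in Col-0 at day 0 (SD, n = 3 each). CYCD4;1 had the lowest TPM in every group, with group means from 2.03 to 3.03 TPM. The order between those ends differed by day. At day 0, CYCD3;1 and CYCD1;1 came next to CYCD3;2 in both genotypes, at 37.6 ± 7.71 and 34.1 ± 3.92 TPM in npf8.4-1 and at 27.4 ± 3.35 and 26.8 ± 2.73 TPM in Col-0. Their libraries overlapped, so these neighbours did not differ beyond their spread, and both lay above every library of SMR1. At day 2 the inhibitors SMR1 and KRP1 stood there in both genotypes. SMR1 had 36.0 ± 2.75 TPM in npf8.4-1 and 31.1 ± 6.58 TPM in Col-0, and KRP1 had 31.6 ± 4.32 TPM in npf8.4-1 and 26.6 ± 6.97 TPM in Col-0. SMR1 and KRP1 overlapped in both genotypes, and in Col-0 SMR1 also overlapped CYCD3;2 and KRP1 overlapped CYCD3;1. KRP2, CYCD2;1, CYCD3;3 and SIM took the lower places, with group means from 6.99 to 16.6 TPM. In npf8.4-1 at day 0 neighbours among these 4 overlapped each other, and in Col-0 at day 0 CYCD3;3 and SIM did. The plot of TPM by library shows these levels for each gene.

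**Figure D1:**
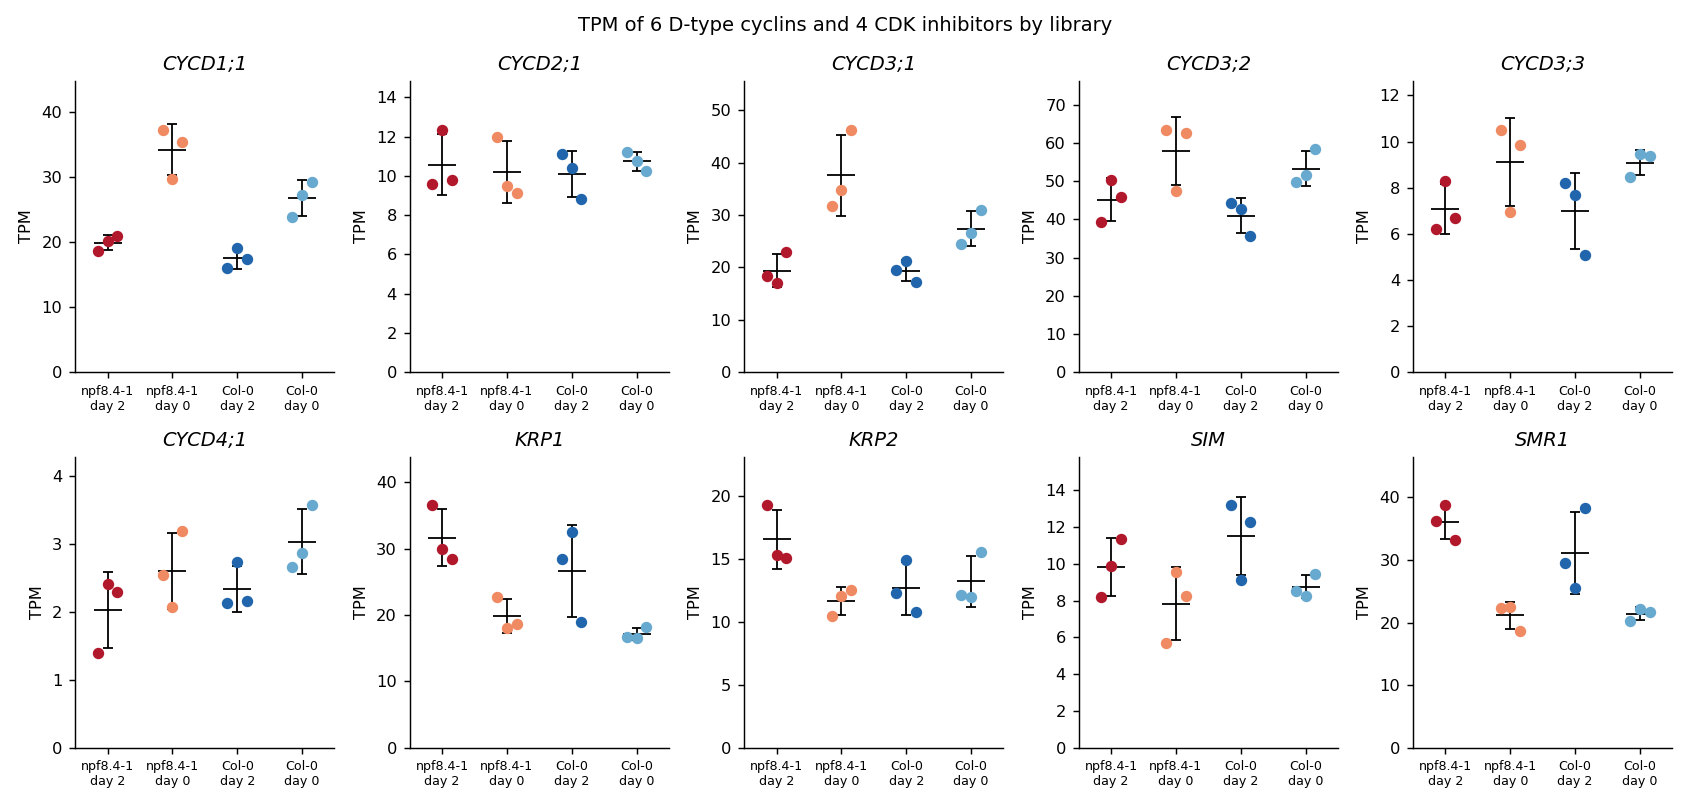
TPM (y axis, linear from 0, a separate scale per gene) of the 6 D-type cyclins and 4 inhibitors in npf8.4-1 and Col-0 at day 2 and day 0 (x axis). Points are libraries 1 to 3 of each group from left to right, black bars are the mean and SD. CYCD1;1 and CYCD3;1 sit lower at day 2 than at day 0 in both genotypes, and KRP1 and SMR1 sit higher.

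Over the 2 days without nitrogen, 4 of the 6 D-type cyclins fell in npf8.4-1 and 4 of 6 fell in Col-0, and the same 4 genes, CYCD1;1, CYCD3;1, CYCD3;2 and CYCD3;3, did so in both. No D-type cyclin of the 6 rose. The falls ran from 0.45 to 1.05 on the log2 scale in npf8.4-1 and from 0.44 to 0.67 in Col-0, which is under 2-fold for all but CYCD3;1 in npf8.4-1. The median of the 6 was -0.45 in each genotype, against 0.03 in npf8.4-1 and 0.02 in Col-0 over all tested genes. The background was wide: the edgeR quasi-likelihood test with Benjamini-Hochberg adjustment called 31.6% of all genes lower and 32.5% higher in npf8.4-1, and 30.4% lower and 29.6% higher in Col-0. Because these are whole leaves, fewer cells of a type and less RNA per cell cannot be told apart.

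CYCD3;1, one of the cyclins through which cytokinin is known to promote cell division in leaves, had the largest fold change of the 10 genes in npf8.4-1. Its level was 20.7, 18.8 and 25.9 CPM in npf8.4-1 at day 2 and 36.9, 44.0 and 54.3 CPM at day 0. In Col-0 it was 21.4, 23.2 and 21.6 CPM at day 2 and 30.3, 31.7 and 35.5 CPM at day 0. All day 2 libraries lay below all day 0 libraries of their genotype, and the genotypes overlapped at day 2. It fell by 1.05 ± 0.14 on the log2 scale in npf8.4-1, which is 2.07-fold lower (SE, edgeR, adjusted p = 3.2e-05). In Col-0 it fell by 0.56 ± 0.14, which is 1.48-fold lower (edgeR, adjusted p = 0.00405). The last 40 bases of AT4G34150 overlap CYCD3;1 (AT4G34160, chr4:16357421-16359565) on the same strand, and AT4G34150 had 2015 to 9404 reads per library. AT4G34150 had a log2 fold change of -0.54 ± 0.33 in npf8.4-1 (edgeR, adjusted p = 0.174) and rose by 1.26 ± 0.33 in Col-0 (edgeR, adjusted p = 0.00727). Whether its reads entered the CYCD3;1 counts was not tested. The genes on the opposite strand that overlap CYCD1;1, CYCD3;2, SIM and SMR1 had at most 8 reads in any library.

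CYCD1;1 (AT1G70210, chr1:26439556-26443007), studied mainly for the first divisions in germinating seeds, had the smallest adjusted p of the members in both genotypes. It had 28.2, 29.8 and 31.7 CPM in npf8.4-1 at day 2 and 57.9, 50.4 and 55.4 CPM at day 0. In Col-0 it had 23.3, 27.9 and 29.0 CPM at day 2 and 39.4, 43.5 and 44.7 CPM at day 0. The days did not overlap in either genotype. It fell by 0.87 ± 0.09 on the log2 scale in npf8.4-1 (SE, edgeR, adjusted p = 4.6e-06) and by 0.67 ± 0.09 in Col-0 (edgeR, adjusted p = 5.4e-05).

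CYCD3;2 (AT5G67260, chr5:26836139-26839597) and CYCD3;3 (AT3G50070, chr3:18565134-18566834), which act with CYCD3;1 to set how many cells a leaf forms, fell by nearly the same fold. CYCD3;2 had 40.0, 50.2 and 46.5 CPM in npf8.4-1 at day 2 and 66.3, 54.1 and 65.9 CPM at day 0. In Col-0 it had 43.5, 42.0 and 40.1 CPM at day 2 and 55.2, 55.5 and 60.2 CPM at day 0. No day 2 library reached the lowest day 0 library. This gene fell by 0.45 ± 0.10 on the log2 scale in npf8.4-1 (SE, edgeR, adjusted p = 0.00145) and by 0.44 ± 0.10 in Col-0 (edgeR, adjusted p = 0.00173). CYCD3;3 had 5.40, 7.06 and 5.81 CPM in npf8.4-1 at day 2 and 9.38, 6.75 and 8.85 CPM at day 0. In Col-0 it had 6.89, 6.45 and 4.88 CPM at day 2 and 8.04, 8.66 and 8.22 CPM at day 0. The days overlapped in npf8.4-1, through the second library of each day, and not in Col-0. It fell by 0.45 ± 0.16 in npf8.4-1 (edgeR, adjusted p = 0.0257) and by 0.45 ± 0.16 in Col-0 (edgeR, adjusted p = 0.0285). Its call was lost with library totals alone as the scale, at -0.38 in npf8.4-1 (edgeR, adjusted p = 0.0954) and -0.40 in Col-0 (edgeR, adjusted p = 0.0887). In npf8.4-1 the call was also lost without day 0 library 1 (-0.36) or 3 (-0.41) or day 2 library 1 (-0.37) or 3 (-0.42), and in Col-0 without day 0 library 1 (-0.44), 2 (-0.43) or 3 (-0.46) or day 2 library 3 (-0.28). It was -0.31 in Col-0 without library 3 of both genotypes at day 2 (edgeR, adjusted p = 0.122).

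CYCD2;1 and CYCD4;1 did not pass the test in either genotype. CYCD2;1 (AT2G22490, chr2:9553797-9556167), a cyclin linked to sugar supply and root branching, had 10.08, 12.74 and 10.30 CPM in npf8.4-1 at day 2 and 12.9, 11.2 and 9.92 CPM at day 0. In Col-0 this gene had 11.3, 10.6 and 10.2 CPM at day 2 and 12.88, 11.98 and 10.91 CPM at day 0. The days overlapped in both genotypes. Its log2 fold change had a 95% interval of -0.31 to 0.23 in npf8.4-1 and of -0.42 to 0.12 in Col-0. CYCD4;1 (AT5G65420, chr5:26141470-26144020), which acts in the stomatal lineage of the hypocotyl and in the root, had 59 to 103 reads in npf8.4-1 and 78 to 106 reads in Col-0 at day 2, and 84 to 116 reads in npf8.4-1 and 112 to 147 reads in Col-0 at day 0. Its log2 fold change was -0.44 ± 0.22 in npf8.4-1 (SE, edgeR, adjusted p = 0.0913) and -0.43 ± 0.21 in Col-0 (edgeR, adjusted p = 0.102), close in size to the called changes of CYCD3;2 and CYCD3;3 but on fewer reads. Counted by libraries alone, 3 of 6 cyclins in npf8.4-1 and 5 of 6 in Col-0 had every day 2 library below every day 0 library, against 34.4% and 33.3% of all genes.

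In npf8.4-1, 3 of the 4 inhibitors rose (KRP1, KRP2 and SMR1), against 32.5% of all tested genes. In Col-0, 2 of 4 rose (KRP1 and SMR1), against 29.6%. None of the 4 fell. Every day 2 library lay above every day 0 library for these same genes, 3 of 4 in npf8.4-1 and 2 of 4 in Col-0, against 35.5% and 32.4% of all genes. The median log2 fold change of the 4 was 0.50 in npf8.4-1 and 0.42 in Col-0. Over all 10 members, 7 passed the test in npf8.4-1 and 6 in Col-0, which is near the share of all genes called in either direction, 64.1% and 60.0%.

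SMR1 (AT3G10525, chr3:3281306-3282131), known as LGO for its role in making the giant endoreduplicated cells of the sepal and leaf epidermis, had 18.1, 18.9 and 16.6 CPM in npf8.4-1 at day 2 and 11.4, 12.6 and 9.64 CPM at day 0. In Col-0 it had 14.2, 12.3 and 21.1 CPM at day 2 and 11.04, 11.70 and 10.94 CPM at day 0. Every day 2 library was above every day 0 library, by a narrow margin for the second Col-0 library and by the widest for the third. SMR1 rose by 0.67 ± 0.17 on the log2 scale in npf8.4-1 (SE, edgeR, adjusted p = 0.00351) and by 0.50 ± 0.17 in Col-0 (edgeR, adjusted p = 0.0216). In Col-0 the value was 0.28 without day 2 library 3 (edgeR, adjusted p = 0.076), 0.48 without day 0 library 3 (edgeR, adjusted p = 0.0612) and 0.25 without the third day 2 library of both genotypes (edgeR, adjusted p = 0.113).

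KRP1 (AT2G23430, chr2:9976590-9978090, ICK1 in the reference annotation) gives small serrated leaves of few, large cells when it is overexpressed. It had 26.0, 20.8 and 20.2 CPM in npf8.4-1 at day 2 and 16.6, 14.3 and 13.7 CPM at day 0. In Col-0 it had 19.4, 22.4 and 14.8 CPM at day 2 and 12.9, 12.3 and 13.1 CPM at day 0. The days did not overlap in either genotype, and the third Col-0 library at day 2 was the lowest of the 6 day 2 libraries. KRP1 rose by 0.59 ± 0.14 on the log2 scale in npf8.4-1 (SE, edgeR, adjusted p = 0.00313) and by 0.56 ± 0.14 in Col-0 (edgeR, adjusted p = 0.00461).

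KRP2 (AT3G50630, chr3:18800306-18801595), which also restrains the divisions that start lateral roots, passed the test in npf8.4-1 only, and the difference between genotypes is tested below. It had 13.2, 10.2 and 10.3 CPM in npf8.4-1 at day 2 and 7.31, 9.24 and 8.88 CPM at day 0. In Col-0 it had 8.14, 9.86 and 8.12 CPM at day 2 and 9.05, 8.63 and 10.8 CPM at day 0. The days were apart in npf8.4-1 and overlapped in Col-0. The log2 fold change was 0.41 ± 0.14 in npf8.4-1 (SE, edgeR, adjusted p = 0.0234) and -0.12 ± 0.14 in Col-0 (edgeR, adjusted p = 0.483). The npf8.4-1 call was lost without day 2 library 1, at 0.28 (edgeR, adjusted p = 0.118), or without day 0 library 1, at 0.31 (edgeR, adjusted p = 0.0947). SIM (AT5G04470, chr5:1266625-1267416), which keeps leaf hairs single-celled by holding them in endoreduplication, had 3.94, 4.62 and 5.42 CPM in npf8.4-1 at day 2 and 2.80, 5.13 and 4.08 CPM at day 0. In Col-0 SIM had 6.09, 4.23 and 6.46 CPM at day 2 and 4.46, 4.16 and 4.58 CPM at day 0. The days overlapped in both genotypes. The 95% interval of its log2 fold change, -0.26 to 0.70 in npf8.4-1 and -0.13 to 0.81 in Col-0, includes changes as large as those of KRP1.

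**Figure D2:**
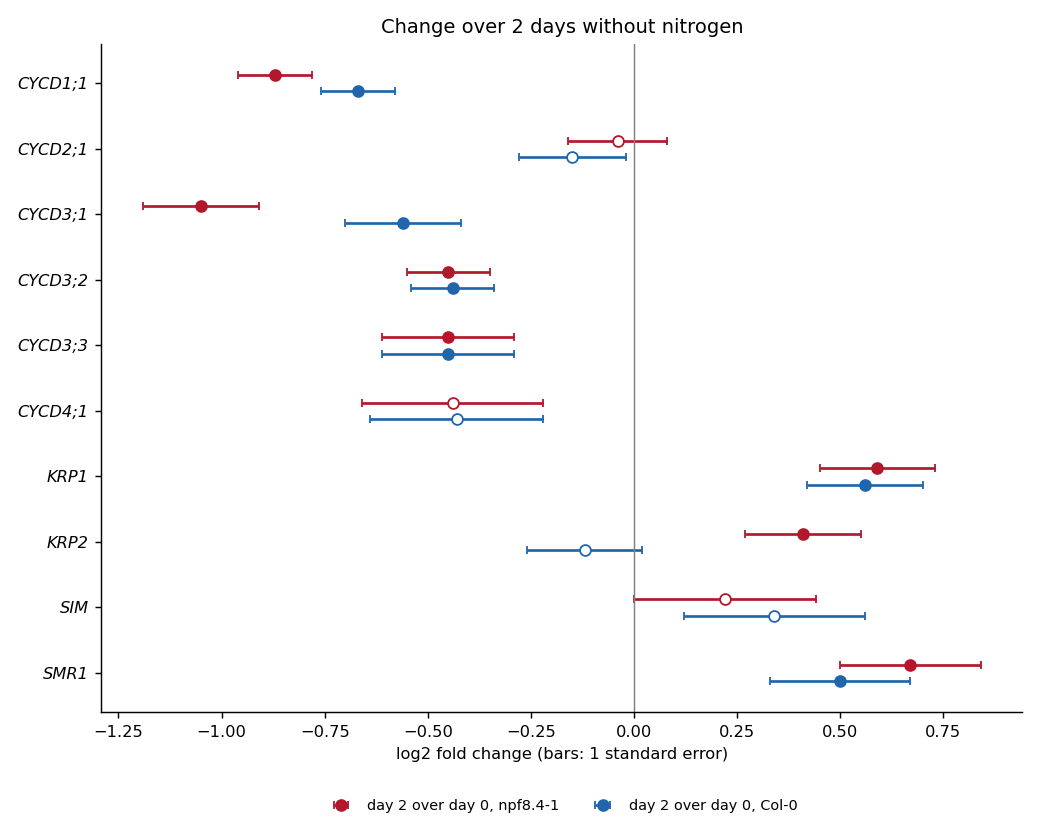
Log2 fold change of day 2 over day 0 (x axis) for each member (y axis), with bars of 1 standard error, in npf8.4-1 (upper, red) and Col-0 (lower, blue). Filled points passed the edgeR test at an adjusted p under 0.05. Cyclins lie at or left of 0, from -1.05 to -0.04, and the inhibitors lie right of 0 except KRP2 in Col-0 at -0.12.

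Summed TPM shows the 6 chosen cyclins and the 4 chosen inhibitors together, not their whole families. The other 4 D-type cyclins, 5 KRP genes and 7 SIAMESE-related genes are left out of these sums and are described below. The 6 cyclins summed to 93.5, 110.6 and 108.4 TPM in npf8.4-1 at day 2 and 157.7, 130.5 and 166.6 TPM at day 0. In Col-0 the cyclin sum was 101.3, 103.8 and 86.4 TPM at day 2 and 120.4, 128.6 and 142.0 TPM at day 0. No day 2 sum reached a day 0 sum. The 4 inhibitors summed to 100.3, 93.8 and 88.2 TPM in npf8.4-1 at day 2 and 61.2, 62.2 and 58.2 TPM at day 0. In Col-0 the inhibitor sum was 83.4, 82.1 and 80.3 TPM at day 2 and 57.6, 58.9 and 65.0 TPM at day 0. Here too the days stood apart, with day 2 above. The ratio of cyclin to inhibitor TPM averaged 1.11 ± 0.159 in npf8.4-1 and 1.19 ± 0.0978 in Col-0 at day 2, and 2.51 ± 0.385 in npf8.4-1 and 2.15 ± 0.0547 in Col-0 at day 0 (SD, n = 3 each). These sums and ratios weigh abundant genes most and carry no test. They hold for these 10 genes, which were chosen with earlier results of these data known. Together the 3 CYCD3 genes held 68.8% of the cyclin sum in npf8.4-1 and 69.1% in Col-0 at day 2, and 69.0% in npf8.4-1 and 68.9% in Col-0 at day 0. CYCD3;1 alone held 18.7% in npf8.4-1 and 19.9% in Col-0 at day 2, against 24.9% in npf8.4-1 and 21.0% in Col-0 at day 0. CYCD3;2 held 42.1% to 45.6% in npf8.4-1 at day 2 against 36.5% to 40.3% at day 0, and CYCD2;1 held 9.04% to 11.2% at day 2 against 5.47% to 7.60% at day 0. In npf8.4-1 both shares were thus higher at day 2 without overlap, and that of CYCD1;1 was lower, at 18.2% to 19.9% against 21.2% to 23.6%. The CYCD2;1 share was higher in Col-0 too, at 10.04% to 10.95% at day 2 against 7.22% to 9.30% at day 0. In Col-0 the shares of CYCD3;2 and CYCD1;1 overlapped between days. A share depends on the whole cyclin sum, which was lower at day 2, so a higher share is not a higher level. CYCD2;1 itself did not pass, at -0.04 in npf8.4-1 and -0.15 in Col-0 on the log2 scale, and CYCD3;2 itself fell.

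**Figure D3:**
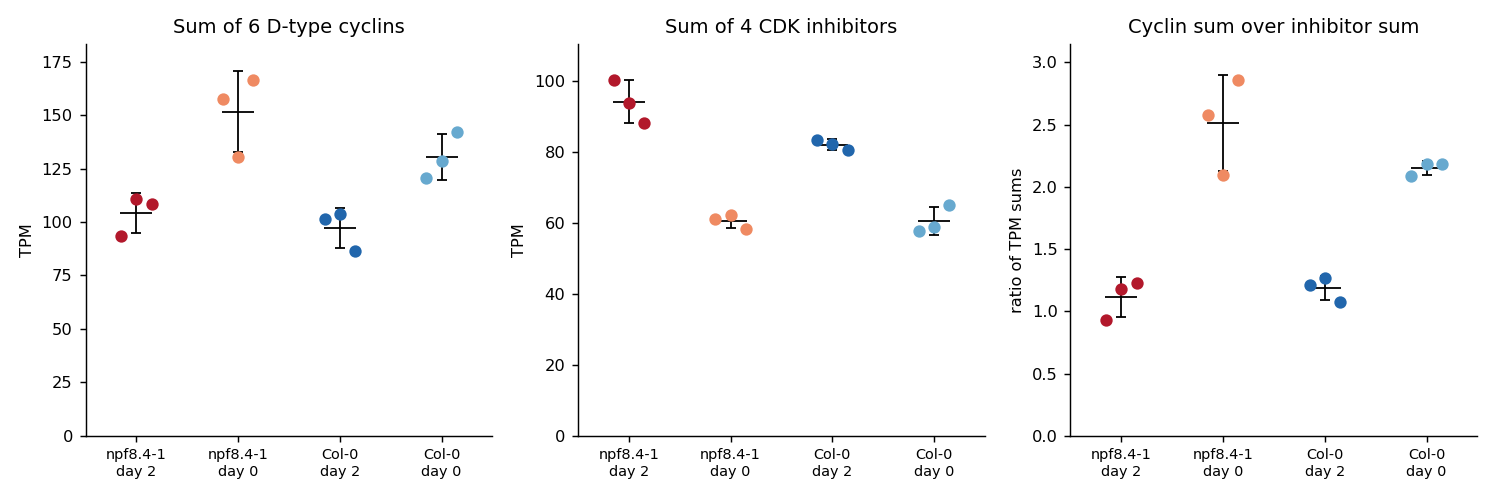
Summed TPM of the 6 D-type cyclins (left), of the 4 inhibitors (middle) and their ratio (right) in each library (points; black bars are mean and SD, y axes from 0) for npf8.4-1 and Col-0 at day 2 and day 0. The ratio lies between 0.932 and 1.26 in the 6 day 2 libraries and between 2.09 and 2.86 in the 6 day 0 libraries.

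Other members of these families did not all follow. Of the 4 remaining D-type cyclins, 1 fell in each genotype and 3 did not pass. The one that fell was CYCD6;1, known for formative divisions of the root, by 0.80 ± 0.25 on the log2 scale in npf8.4-1 (SE, edgeR, adjusted p = 0.0136) and by 1.09 ± 0.26 in Col-0 (edgeR, adjusted p = 0.00257). Without day 0 library 1 or day 2 library 1 the npf8.4-1 value was -0.65 or -0.57 and no longer passed. Among the 5 remaining KRP genes, 4 fell in npf8.4-1 with none rising, and in Col-0 4 fell and 1 rose. Of all tested genes, 31.6% fell and 32.5% rose in npf8.4-1, and 30.4% fell and 29.6% rose in Col-0. KRP3 had 6 to 17 reads in npf8.4-1 and 10 to 13 reads in Col-0 at day 2, against 61 to 89 and 33 to 59 reads at day 0. It fell by 2.76 ± 0.36 in npf8.4-1 (edgeR, adjusted p = 2.3e-05) and by 1.91 ± 0.37 in Col-0 (edgeR, adjusted p = 0.000713). KRP7 fell by 1.42 ± 0.19 and 1.53 ± 0.19 and KRP5 by 0.87 ± 0.23 and 0.84 ± 0.23 in npf8.4-1 and Col-0. KRP4 fell by 0.34 ± 0.12 in npf8.4-1 and by 0.31 ± 0.12 in Col-0, and these calls were lost in each genotype in all leave-one-out fits but that without day 2 library 1, with values of the lost calls from -0.34 to -0.26 in npf8.4-1 and from -0.35 to -0.19 in Col-0. KRP6 was the one that rose in Col-0, by 0.62 ± 0.16 (edgeR, adjusted p = 0.00476), with a value of 0.32 ± 0.16 in npf8.4-1 (edgeR, adjusted p = 0.0939). Within the KRP family, then, KRP1 rose in both genotypes while KRP3, KRP5 and KRP7 fell.

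The SIAMESE-related genes were split too. Of 7 on the list, 6 were tested, and 3 rose and 2 fell in npf8.4-1, and 2 rose and 1 fell in Col-0. The shares of all tested genes were 32.5% higher and 31.6% lower in npf8.4-1, and 29.6% and 30.4% in Col-0. AT1G10690 rose by 0.84 ± 0.18 in npf8.4-1 (SE, edgeR, adjusted p = 0.00127) and by 0.82 ± 0.18 in Col-0 (edgeR, adjusted p = 0.00149). SMR5, an inhibitor induced by oxidative and DNA damage, had 6 to 55 reads in npf8.4-1 and 11 to 22 reads in Col-0 at day 2, against 3 to 5 and 2 to 5 reads at day 0. It rose by 2.45 ± 0.72 in npf8.4-1 (edgeR, adjusted p = 0.00916) and by 2.31 ± 0.77 in Col-0 (edgeR, adjusted p = 0.0206). Its calls rest on few reads and on single libraries: the npf8.4-1 value without day 2 library 1 was 1.28 and the Col-0 value was 2.22, 2.03 or 2.08 without day 0 library 2, day 0 library 3 or day 2 library 2, and none of these passed. SMR3 rose by 0.84 ± 0.24 in npf8.4-1 (edgeR, adjusted p = 0.00918) and had a value of 0.19 ± 0.24 in Col-0 (edgeR, adjusted p = 0.522). AT5G40460 fell by 1.56 ± 0.21 in npf8.4-1 (edgeR, adjusted p = 3.7e-05) and by 0.62 ± 0.21 in Col-0 (edgeR, adjusted p = 0.0214). That Col-0 call was lost without day 0 library 1 (-0.60), day 0 library 3 (-0.57) or day 2 library 2 (-0.42). SMR4, with 3 to 9 reads in npf8.4-1 at day 2 against 25 to 43 reads at day 0, fell by 2.55 ± 0.68 there (edgeR, adjusted p = 0.00575) and had a value of -0.60 ± 0.59 in Col-0 (edgeR, adjusted p = 0.403), where its day 2 libraries had 5, 12 and 42 reads.

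Most listed genes of the steps that D-type cyclins act on fell, while their kinase did not. CDKA;1, the kinase they bind, averaged 49.3 ± 1.27 CPM in npf8.4-1 and 51.4 ± 1.98 CPM in Col-0 at day 2, against 44.1 ± 1.28 CPM in npf8.4-1 and 44.9 ± 0.686 CPM in Col-0 at day 0 (SD, n = 3 each). This is a rise of 0.16 ± 0.06 on the log2 scale in npf8.4-1 and 0.20 ± 0.06 in Col-0 (edgeR, adjusted p = 0.0338 and 0.0147). CDKA;1 is named for its role, after its values were seen. The npf8.4-1 call was lost in 5 of 6 leave-one-out fits, all but that without day 2 library 2, at 0.14 to 0.18, and the Col-0 call was lost without day 0 library 3, at 0.18. In the list of 9 CDK partners and activating kinases, 5 fell in each genotype, 2 rose in npf8.4-1 and 1 rose in Col-0, with medians of -0.62 and -0.58. Over all tested genes 31.6% fell and 32.5% rose in npf8.4-1, and 30.4% fell and 29.6% rose in Col-0. CYCH;1, the cyclin of the CDK-activating kinase, fell by 1.12 ± 0.12 in npf8.4-1 (edgeR, adjusted p = 5.0e-06) and by 1.15 ± 0.12 in Col-0 (edgeR, adjusted p = 5.5e-06). WEE1, a kinase that holds CDKA;1 back when replication is stressed, fell by 1.55 ± 0.19 and 1.61 ± 0.19 in npf8.4-1 and Col-0. RBR1, the substrate of the cyclin complexes, averaged 59.4 ± 6.47 CPM in npf8.4-1 and 56.7 ± 2.21 CPM in Col-0 at day 2, against 104.8 ± 0.217 and 93.4 ± 2.27 CPM at day 0. It fell by 0.82 ± 0.08 and 0.72 ± 0.08 in npf8.4-1 and Col-0, which is close to the fall of CYCD1;1.

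In the list of 9 RBR and E2F genes, 7 fell and none rose in each genotype, with a median of -0.81 in npf8.4-1 and -0.63 in Col-0. For this and the following lists, the share of all tested genes that fell was 31.6% in npf8.4-1 and 30.4% in Col-0. E2FA, an activating E2F, fell by 1.39 ± 0.20 in npf8.4-1 (SE, edgeR, adjusted p = 5.0e-05) and by 1.3 ± 0.20 in Col-0 (edgeR, adjusted p = 0.000109). DEL1, an atypical E2F that delays endoreduplication, fell by 1.41 ± 0.21 in npf8.4-1 and by 1.77 ± 0.21 in Col-0. Of 10 E2F targets of DNA replication, 9 fell in each genotype and 1 did not pass, with medians of -1.73 and -1.54. Among them MCM2 of the replicative helicase fell by 1.73 ± 0.17 and 1.57 ± 0.17, PCNA2 of the sliding clamp by 1.81 ± 0.15 and 1.64 ± 0.15, and RNR1, the large subunit of ribonucleotide reductase, by 2.03 ± 0.19 and 1.87 ± 0.19 in npf8.4-1 and Col-0. All 11 mitotic genes fell in both genotypes, with medians of -1.52 and -1.39. CYCB1;1 fell by 2.14 ± 0.30 and 1.67 ± 0.30, and KNOLLE, the syntaxin of the cell plate, by 2.07 ± 0.29 and 1.71 ± 0.28 in npf8.4-1 and Col-0. Of 8 endocycle regulators, 4 fell in npf8.4-1 and 5 in Col-0, and none rose. Those with the smallest p act against endoreduplication or in mitosis: CYCA2;3 fell by 1.55 ± 0.13 and 1.17 ± 0.13, UVI4 by 1.79 ± 0.27 and 1.40 ± 0.27, OSD1 by 1.94 ± 0.30 and 1.53 ± 0.30, and CCS52B by 1.65 ± 0.25 and 1.28 ± 0.25 in npf8.4-1 and Col-0. Taken by smallest p, they do not stand for the whole list. CCS52A2 averaged 5.99 ± 0.579 CPM in Col-0 at day 2 and 7.63 ± 0.721 CPM at day 0, without overlap. CCS52A1 averaged 12.2 ± 1.51 CPM in npf8.4-1 at day 2 and 10.4 ± 0.914 CPM at day 0, and did not pass there. These lists were made with earlier results of the same data known.

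**Figure D4:**
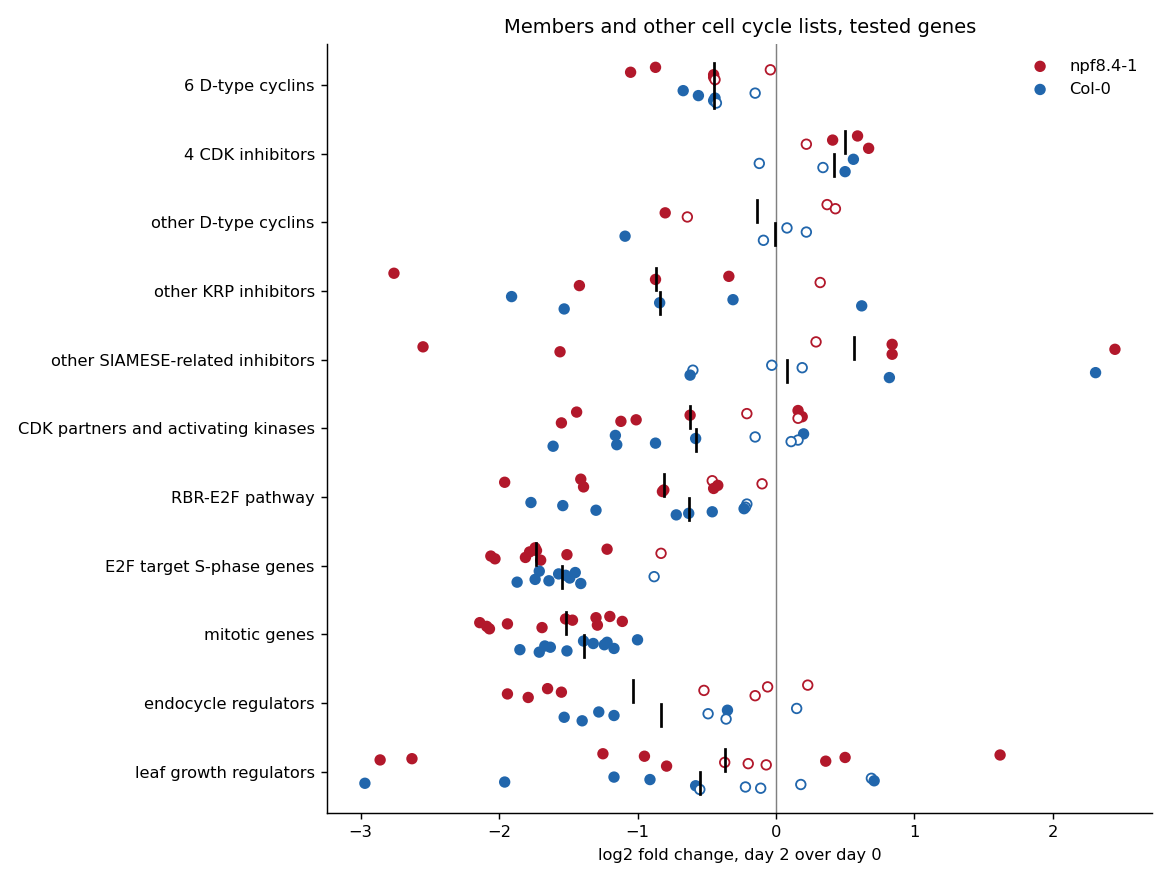
Log2 fold change of day 2 over day 0 (x axis) for each tested gene of the member families and 9 other lists (y axis), npf8.4-1 above (red) and Col-0 below (blue). Filled points passed the edgeR test at an adjusted p under 0.05 and black bars are list medians. The 6 D-type cyclins have a median of -0.45, while replication and mitotic genes lie between -2.14 and -0.83.

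Markers of some other cell types moved over the same 2 days. The summed TPM of 8 stomatal lineage genes was 79.8 to 93.5 in npf8.4-1 and 68.4 to 79.4 in Col-0 at day 2, and 102.3 to 105.0 in npf8.4-1 and 97.3 to 124.4 in Col-0 at day 0. In that list 4 genes fell and 2 rose in npf8.4-1, and 6 fell and 2 rose in Col-0. The summed TPM of 5 vascular genes was 310.6 to 380.9 in npf8.4-1 and 322.5 to 386.4 in Col-0 at day 2, and 97.2 to 136.4 in npf8.4-1 and 131.2 to 156.1 in Col-0 at day 0. Of these 5, 4 rose in npf8.4-1 and 3 in Col-0. The sum of 6 trichome genes was 60.1 to 66.9 in npf8.4-1 and 48.5 to 59.0 in Col-0 at day 2, and 61.3 to 63.0 in npf8.4-1 and 50.7 to 69.0 in Col-0 at day 0. Of these 6, 1 rose (TRY) and 2 fell (GL1 and MYB23) in each genotype. The counts of the 3 lists stand beside 32.5% of all tested genes higher and 31.6% lower in npf8.4-1. In Col-0 these shares were 29.6% and 30.4%. TRY averaged 9.57 ± 0.459 CPM in npf8.4-1 at day 2 and 4.30 ± 1.38 CPM at day 0, and GL1 0.491 ± 0.0531 CPM at day 2 and 1.84 ± 0.494 CPM at day 0 (SD, n = 3 each). No defining marker of these 3 lists was at 0 in all libraries of a group. The part of such cells in the changes of cyclins and inhibitors was not tested.

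Between genotypes, no member passed the edgeR test at either day, with all p-values adjusted over 19416 genes. At day 0 the cyclins CYCD1;1 and CYCD3;1 were the nearest to passing. CYCD1;1 was 57.9, 50.4 and 55.4 CPM in npf8.4-1 at day 0 against 39.4, 43.5 and 44.7 CPM in Col-0 at day 0, and all 3 mutant libraries were above all 3 of Col-0. The difference was 0.36 on the log2 scale, with a 95% interval of 0.16 to 0.56 (edgeR, unadjusted p = 0.00202, adjusted p = 0.209). DESeq2 gave 0.37 and called it (adjusted p = 0.0396). CYCD3;1 differed by 0.47, with a 95% interval of 0.17 to 0.77 (edgeR, unadjusted p = 0.00512, adjusted p = 0.308), and again all mutant libraries were the higher. AT4G34150, which overlaps CYCD3;1, had a value of 0.81 ± 0.33 between genotypes at day 0 (SE, edgeR, adjusted p = 0.588). At day 2 it was -1 ± 0.33 (edgeR, adjusted p = 0.209). Whether its reads entered the CYCD3;1 difference was not tested. KRP1 was also higher in all npf8.4-1 libraries at day 0, by 0.22 (95% interval -0.10 to 0.53). So 3 of 10 members were higher in every npf8.4-1 library and none was lower in every one, against 6% and 7.52% of all genes. Of all genes, edgeR called 0.0309% higher and 0.118% lower in npf8.4-1 at day 0, 0.149% in all.

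At day 2 the largest difference between genotypes was that of KRP2, at 13.2, 10.2 and 10.3 CPM in npf8.4-1 and 8.14, 9.86 and 8.12 CPM in Col-0. KRP2 was the 1 member with all npf8.4-1 libraries above all Col-0 libraries, against 9.30% of all genes, and 0 members had them all below, against 6.76%. The difference was 0.37, with a 95% interval of 0.06 to 0.68 (edgeR, unadjusted p = 0.0228, adjusted p = 0.28). CYCD1;1 and CYCD3;1 differed by 0.16 (95% interval -0.04 to 0.36) and -0.02 (-0.32 to 0.29) at day 2. For the other members the interval at day 2 also included 0, with its ends between -0.73 and 0.55. Of all genes, edgeR called 0.484% higher and 0.953% lower in npf8.4-1 at day 2, 1.44% in all.

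Whether the change over 2 days differed between genotypes was tested by the interaction. Its largest values among the members were those of KRP2, 0.53 ± 0.20, with a 95% interval of 0.09 to 0.97 (SE, edgeR, unadjusted p = 0.0213, adjusted p = 0.442), and of CYCD3;1, -0.49 ± 0.20, with an interval of -0.92 to -0.06 (edgeR, unadjusted p = 0.0293, adjusted p = 0.484). Neither passed, nor did any other member. Over all genes edgeR called 0 of 19416 (0%), with 1759 at an unadjusted p under 0.05, and DESeq2 called 269, none of them a member. AT4G34150, which overlaps CYCD3;1, had an interaction of -1.80 ± 0.47 (edgeR, adjusted p = 0.25), the same sign as CYCD3;1. A p above the threshold does not show that the genotypes responded alike.

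**Figure D5:**
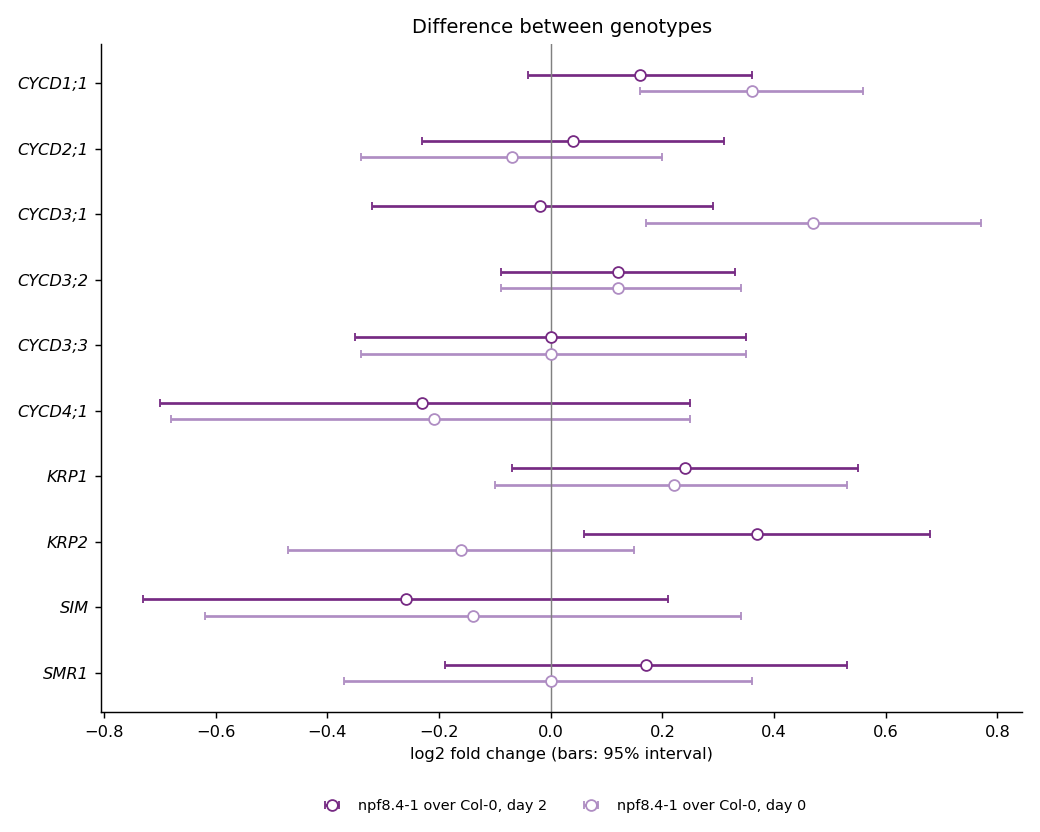
Log2 fold change of npf8.4-1 over Col-0 (x axis) with 95% intervals for each member (y axis), at day 2 (upper, dark) and at day 0 (lower, light). All points are open because none passed the edgeR test, and the intervals of CYCD1;1 (0.16 to 0.56) and CYCD3;1 (0.17 to 0.77) at day 0 and of KRP2 at day 2 (0.06 to 0.68) do not include 0.

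The genes whose level moved most like each member were found by the root mean square difference of log2 CPM, each gene centred on its own mean, over the 12 libraries and among 19415 other tested genes. CYCD1;1 was nearest to MOS4 (0.110) and RBR1 (0.112), on a scale where its own spread was 0.420. CYCD3;1 was nearest to AT2G47500 (0.127) and G6PD4 (0.139), CYCD3;2 to PRMT4A (0.060) and XPO1A (0.072), and CYCD3;3 to AT1G20100 (0.091) and LEW1 (0.097). CYCD3;2 was 12th in the order for CYCD3;3, the closest place of any member to another among the genes named here. For the other cyclins named here, the nearest member stood at places 106 to 515. The inhibitors lay much further from any member. For KRP1 the nearest was KRP2, at place 4121, and for SMR1 it was KRP1, at place 4460, among the 19415 genes compared. KRP1 was nearest to MBD11 (0.064) and ARF9 (0.109), and SMR1 to GLP10 (0.127) and DRT100 (0.134). Likeness here is mostly likeness of the change between days, which 64.1% of genes in npf8.4-1 and 60.0% in Col-0 showed in one direction or the other.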

How the data were processed

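Poly(A) RNA of young leaves was measured in 12 libraries, 3 biological replicates for each of 4 groups, taken from the sample titles and labels. A stranded poly(A) kit was used, per the labels' protocols, and the series' design text says that a replicate holds 15 plants. The authors deposited, per the file headers, a count of exon reads, a TPM value and an RPKM value for 37242 genes per library. The counts were used for all tests and the deposited TPM for levels between genes, and RPKM was not used. The submitters' processing notes name bcl2fastq 2.17.1.14 and the build TAIR10. The aligner, the counting program and its strand setting were not given in the sources used here, so reads of overlapping genes may have been shared. Of the 37242 genes, 36794 had the same start and end in TAIR10.1, which allowed promoter windows to be read from it. All 10 windows and 8 motifs were searched, and not every window or match is reported here.

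A single model of the 4 groups was fitted to the counts of the 12 libraries (edgeR 4.0.16 quasi-likelihood test in R 4.3.3, TMM scaling, filterByExpr, robust dispersion), with Benjamini-Hochberg adjustment over 19416 genes and a threshold of 0.05. SE is the log2 fold change over the root of the F statistic, and p-values measure the spread between pools. The fit was tested on simulated counts with known folds. No replicate pair agreed within sampling noise. Other genes came from named lists, as all measured members of the D-type cyclin, KRP and SIAMESE-related families and up to 4 genes of each further list, taken by smallest p among those that passed. The members and lists were chosen with earlier results of these data known. The alternatives were DESeq2 1.42.0 (size factors and test), library totals as the scale, no filter or a filter of 1 CPM, a fit of the compared groups, a replicate block, each library left out, and library 3 of both genotypes at day 2 left out.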

Additional observations from a re-analysis of the deposited data

How the results depend on the processing

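For day 2 against day 0, 128 of 140 alternative values of members in npf8.4-1 and 131 of 140 in Col-0 kept their direction and their side of the threshold, and CYCD1;1, CYCD3;1, CYCD3;2 and KRP1 did so in every alternative run in both genotypes. The calls lost for CYCD3;3, KRP2 and SMR1 are given in the report, and the cause was not tested. In Col-0, 1 member rose in place of 2 without library 3 of both genotypes at day 2, and 1 to 2 rose with 1 library left out. CYCD4;1 passed in npf8.4-1 with the replicate block (-0.46, edgeR, adjusted p = 0.0499), and the block changed no other member's call. Same-numbered libraries did not vary together in every pair (correlations of their deviations from group means -0.173 to 0.418). Correlations were positive in all comparisons for libraries numbered 1 and 3 and negative for those numbered 2, and the labels name no shared batch, so the block was not made part of the reported fit and a shared batch was not tested further. The block called 615 genes between genotypes at day 2, 173 at day 0 and 43 for the interaction.

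Counts of called genes between genotypes depended on the processing. At day 2 the 279 genes became 784 with DESeq2, 130 in a fit of the 2 groups, 44 without library 3 of both genotypes at day 2, and 29 to 346 with 1 library left out (29 without npf8.4-1 day 2 library 2, 88 without its library 3, 178 without Col-0 day 2 library 2 and 162 without its library 3). At day 0 the 29 genes became 232 with DESeq2, with 1 member higher (CYCD1;1), and 12 to 30 with 1 library left out (12 without Col-0 library 1 or 2, and 13 and 17 without npf8.4-1 library 2 and 3). For the interaction the 0 genes became 269 with DESeq2 and 0 to 6 with 1 library left out. Signs that turned belong to values near 0 that passed under no setting. With library totals alone CYCD2;1 was 0.04 for day 2 against day 0 in npf8.4-1 and CYCD4;1 was 0.02 in the interaction, and without library 3 of both genotypes at day 2 KRP1 was -0.07 in the interaction. With 1 library left out, CYCD2;1 ran from -0.15 to 0.07 for the npf8.4-1 days, from -0.07 to 0.11 between genotypes at day 2 and from -0.18 to 0.02 at day 0. CYCD3;1 ran from -0.16 to 0.08 between genotypes at day 2 and SIM from -0.37 to 0.07 at day 0. In the interaction KRP1 ran from -0.16 to 0.14, SIM from -0.33 to 0.07 and CYCD4;1 from -0.15 to 0.19. A value that rounds to 0.00 was given no direction. CYCD4;1, SIM, SMR4, SMR5 and KRP3 are limited by their low counts.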

Other observations

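Regulators of leaf size and cell number changed in both directions over the 2 days. Of 12 genes on that list, 11 were tested, and 3 rose and 5 fell in npf8.4-1, while 1 rose and 5 fell in Col-0. Among all tested genes, 32.5% rose and 31.6% fell in npf8.4-1, and 29.6% rose and 30.4% fell in Col-0. ANT, a transcription factor that prolongs cell division in young organs, averaged 12.1 ± 1.96 CPM in npf8.4-1 and 11.2 ± 1.17 CPM in Col-0 at day 2, against 28.8 ± 4.01 and 25.1 ± 4.42 CPM at day 0 (SD, n = 3 each). It fell by 1.25 ± 0.15 on the log2 scale in npf8.4-1 (SE; edgeR, adjusted p = 1.4e-05) and by 1.17 ± 0.16 in Col-0 (edgeR, adjusted p = 3.3e-05). GIF1, a coactivator of growth-regulating factors, fell by 2.63 ± 0.39 in npf8.4-1 (edgeR, adjusted p = 9.0e-05) and by 1.96 ± 0.38 in Col-0 (edgeR, adjusted p = 0.000837). BB and DA1 both limit organ size, and they moved apart: BB fell by 0.95 ± 0.14 and 0.91 ± 0.14, and DA1 rose by 0.50 ± 0.11 and 0.71 ± 0.11 in npf8.4-1 and Col-0. None of the listed genes passed between genotypes or in the interaction.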
